A study of Bos taurus with 40 samples.

Results

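Acute phase proteins are plasma proteins whose output by the liver shifts when tissue is injured or infected. Interleukin-6 and related cytokines act on hepatocytes through STAT3, and interleukin-1 acts through NF-kappaB. Haptoglobin and serum amyloid A are the acute phase proteins most often measured in cattle, where they serve in the clinic as signs of infection of the udder, uterus and lung, while C-reactive protein is regarded as a weak responder in this species.

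Although earlier results of these data were known, the genes described here were chosen by symbol as a family and not by any measured value. The genes are 10 of the 13570 genes in the tables. They are HP (haptoglobin), HPX (hemopexin), CP (ceruloplasmin), HAMP (hepcidin), LBP (lipopolysaccharide binding protein), CRP (C-reactive protein), SAA3 (serum amyloid A3), ORM1 (alpha-1-acid glycoprotein), ITIH4 (inter-alpha-trypsin inhibitor heavy chain 4) and A2M (alpha-2-macroglobulin). All 10 were found and all 10 were among the 13148 genes tested, which had at least 1 read in at least 1 library.

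RNA was sequenced from the pituitary gland, longissimus dorsi muscle, abdominal fat and liver of 10 Korean cattle, 5 cows and 5 bulls, slaughtered at more than 22 months of age. Each animal gave 1 library per tissue, so each group of a sex and a tissue held 5 animals and the study 40 libraries. Tissues are paired within an animal by replicate number, a pairing that the source labels, which name only sex and tissue, do not state. The labels give no treatment, and they do not give pregnancy or health at slaughter. Levels are given as CPM, the reads of a gene per 1000000 gene reads of its library after scaling with TMM factors.

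Gene reads per library ranged from 5173092 to 19165864 (median 10005607), and 3 reads corresponded to 0.157 to 0.580 CPM before scaling. The labelled tissues showed their own markers. The summed level of 10 hepatocyte markers was 133685 to 302907 CPM in liver, against 38.9 to 86.7 CPM in pituitary, 17.7 to 159 CPM in muscle and 49.3 to 497 CPM in fat. Summed adipocyte markers were 4888 to 9636 CPM in fat and at most 628 CPM elsewhere, muscle fibre markers at least 81210 CPM in muscle and at most 129.9 CPM elsewhere, and pituitary hormone markers at least 81663 CPM in pituitary and at most 385 CPM elsewhere. A pair of libraries stood apart by sex-linked genes. The liver library labelled bull 3 had 1401 CPM of XIST, within the 681 to 2179 CPM of the cows, and no read of USP9Y, DDX3Y or ZFY. It was also the closest of all liver pairs to the liver of cow 4, with a median difference over the 10 genes of 0.14 on the log2 scale, although the pair still differed by more than sampling noise. The fat library labelled bull 5 had 1.78 CPM of USP9Y, against 28.1 to 34.1 CPM in the fat of the other bulls. Its XIST was low too. Its XIST, USP9Y, DDX3Y and ZFY summed to 3.56 CPM, against 40.5 to 44.9 CPM in the other bulls and 316 to 981 CPM in cows. This library held the highest summed hepatocyte markers of any fat (497 CPM). It also held the highest neutrophil markers (558 CPM, against at most 237 CPM in the other fat libraries). The comparisons of tissues and of sexes were also fitted without each of these animals.

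Liver was the tissue with the highest level for 8 of the 10 genes, and A2M and SAA3 were the exceptions. The 10 genes together took 3.43% ± 1.21 (SD, n = 10) of the gene reads in liver and 0.471% ± 0.287 in fat. Their share was 0.0779% ± 0.0428 in muscle and 0.0303% ± 0.0115 in pituitary. By edgeR's quasi-likelihood test, with a call at an adjusted p below 0.05 and an absolute log2 fold change of at least 1, 8 of the 10 were higher in liver than in fat (21.2% of all genes tested were) and 1 was lower (26.2% of all genes). Against muscle, 9 were higher in liver (21.6% of all genes) and 0 were lower (24.8%). Against pituitary, 10 were higher in liver (21.1%) and 0 were lower (27.1%). The median log2 fold change of the 10 genes was 7.79 against fat, 10.84 against muscle and 11.10 against pituitary, while that of all genes tested was -0.13, -0.11 and -0.12. Without bull 3 or without bull 5, 9, 9 and 10 genes were again called between liver and fat, muscle and pituitary. These 3 comparisons share the 10 liver libraries. In bulk tissue, fewer cells of a type and less RNA per cell cannot be told apart.

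**Figure D1:**
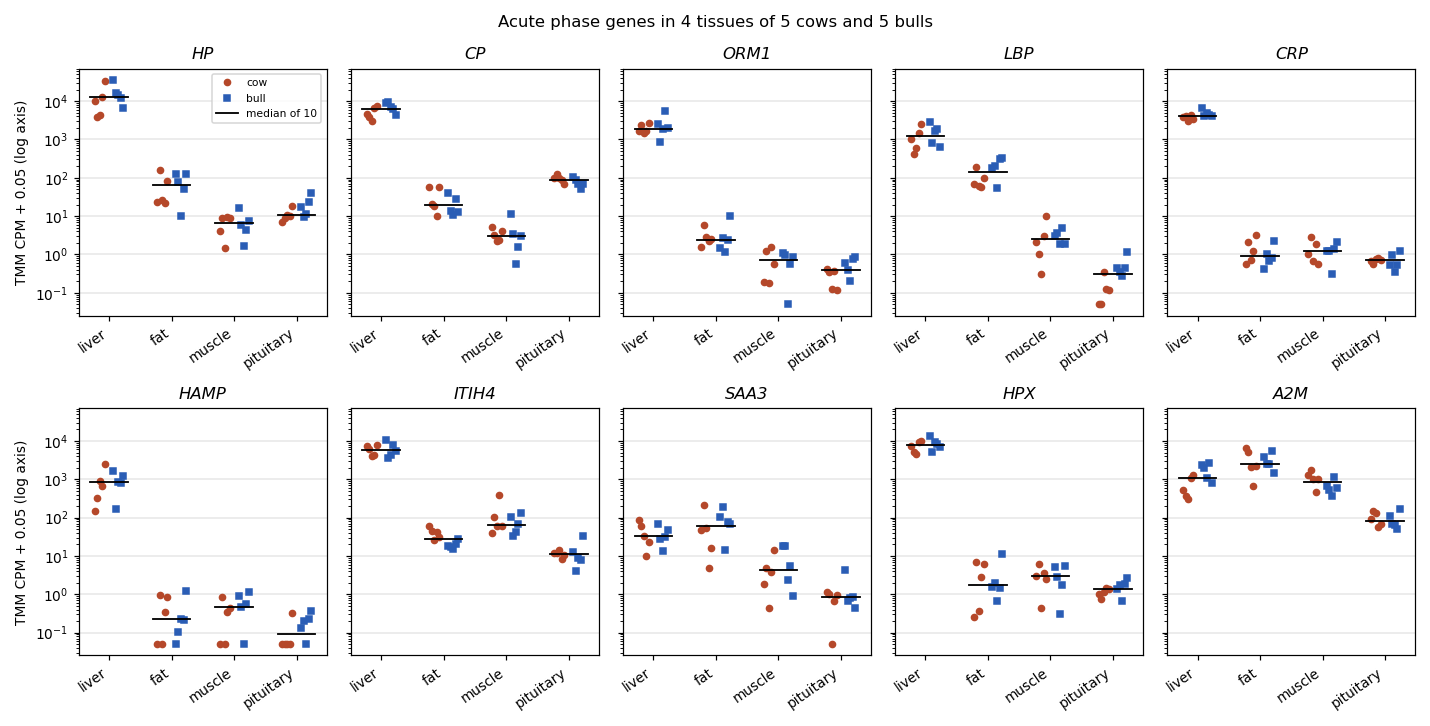
Level of each gene in every library, as TMM CPM plus 0.05 on a log axis, by tissue. Circles are the 5 cows, squares the 5 bulls and lines the median of the 10. HP, HPX, CRP, ORM1, HAMP, CP, ITIH4 and LBP were highest in liver, whereas A2M was highest in fat and SAA3 overlapped between liver and fat.

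The scaling of the libraries bears on these comparisons. With library sizes alone in place of TMM factors, the median of all genes moved to -0.82 between liver and fat and to -0.92 between liver and pituitary, and the split of all genes between liver and fat went from 2792 higher and 3443 lower to 1712 higher and 5518 lower. Liver to pituitary went from 2775 higher and 3569 lower to 1736 and 6047. Between fat and muscle the median moved from 0.13 to 0.86, with 5667 genes higher and 1307 lower in fat against 3135 and 2515 with TMM, and between muscle and pituitary it moved from -0.03 to -0.89, with 1503 higher and 5888 lower in muscle against 2973 and 3314. None of the 10 genes changed direction between these scalings in a called comparison.

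HP binds free haemoglobin and HPX binds free haem, so both keep iron from being lost or used by microbes. HP in liver was 10162, 3874, 4317, 12468 and 32515 CPM in cows 1 to 5, and 35866, 15781, 14020.5, 12305 and 6612 CPM in the livers labelled bulls 1 to 5. The highest liver, that of bull 1, and the next, that of cow 5, were well above the others, and the lowest were those of cows 2 and 3. The lowest of the bulls, bull 5, lay between cows 3 and 1, so the sexes overlapped. HP outside liver was 9.79 to 158 CPM in fat, 1.40 to 15.8 CPM in muscle and 6.94 to 39.8 CPM in pituitary. It was 7.72 (SE 0.44, adjusted p = 2.33e-15) on the log2 scale higher in liver than in fat by edgeR's quasi-likelihood test, and higher in fat than in muscle by 3.35. HP was also lower in muscle than in pituitary, at a log2 fold change of -1.15 (adjusted p = 0.026, edgeR's quasi-likelihood test), a call that was lost without bull 4 (-1.01, adjusted p = 0.0738).

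HPX in liver ranged from 4469 to 13839 CPM, with a median of 8063 CPM. The other tissues reached at most 11.4 CPM in fat, 6.05 CPM in muscle and 2.67 CPM in pituitary. The 11.4 CPM came from the fat of bull 5, and the rest of the fat libraries lay between 0.206 and 6.76 CPM. HPX was higher in liver than in each of the other tissues by 11.25, 11.33 and 12.56 on the log2 scale (fat, muscle and pituitary).

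CP carries copper and oxidises iron, and HAMP is the peptide hormone that lowers iron release by blocking ferroportin. CP in liver ranged from 3087 to 9343 CPM. In pituitary it was 95.8, 124, 96.8, 85.1 and 68.2 CPM in cows 1 to 5 and 102, 89.2, 67.4, 51.3 and 69.3 CPM in bulls 1 to 5. Every pituitary was above every muscle and above all fat libraries but those of cows 1 and 5. CP was lower in fat than in pituitary (log2 fold change -1.68, SE 0.33, adjusted p = 3.53e-05, edgeR's quasi-likelihood test), and lower in muscle than in pituitary, at -4.53. CP was the only one of the 10 genes called higher in pituitary than in fat, and CP and HP were the only ones called higher in pituitary than in muscle.

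HAMP in liver was 149, 328, 891, 650.4 and 2575 CPM in cows 1 to 5 and 1608, 164, 865, 797 and 1186 CPM in bulls 1 to 5. It had the widest spread over livers of the 10 genes, and the lowest 2 livers, those of cow 1 and bull 2, came from different sexes. In the other tissues HAMP was close to the limit of detection. No read was seen in 3 of 10 fat libraries, 3 of 10 muscles and 5 of 10 pituitaries, and the highest counts were 15, 9 and 5 reads. A count of 0 in any of these libraries allows up to 3 reads, which is 0.157 to 0.580 CPM at their depths and covers counting error only. The log2 fold changes of liver over these tissues (11.30, 10.96 and 12.96) lean on those few reads.

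LBP presents bacterial lipopolysaccharide to CD14, CRP binds phosphocholine on microbes and dying cells, and SAA3 is an amyloid A protein made both by liver and by other tissues. LBP in liver was 999, 423, 588, 1489 and 2495 CPM in cows 1 to 5 and 2824, 809.7, 1624, 1852 and 642 CPM in bulls 1 to 5. In fat it was 67.4, 188, 59.4, 58.3 and 99.9 CPM in the cows and 180.0, 198, 55.5, 303 and 322 CPM in the bulls. The lowest liver was above the highest fat library, but the gap between liver and fat was small for a liver gene. LBP was higher in liver than in fat by 3.26 (SE 0.40, adjusted p = 1.74e-08, edgeR's quasi-likelihood test) on the log2 scale, against 8.75 for liver over muscle and 12.28 for liver over pituitary. LBP in muscle was 0.254 to 9.73 CPM, and 0 to 1.11 CPM in pituitary, where 5 of 10 libraries held no more than 3 reads. Fat was above muscle in all libraries, with a log2 fold change of 5.48.

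CRP in liver ranged from 2999 to 6610.1 CPM. It was 0.362 to 3.07 CPM in fat, 0.264 to 2.85 CPM in muscle and 0.305 to 1.17 CPM in pituitary, and these 3 tissues overlapped. Neither the difference between fat and muscle (log2 fold change -0.09, adjusted p = 0.835) nor those of fat (0.87) and muscle (0.96) over pituitary met the call, the last 2 because of their size.

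SAA3 in liver was 88.8, 59.6, 33.7, 10.2 and 23.7 CPM in cows 1 to 5 and 70.1, 27.4, 13.2, 31.8 and 47.4 CPM in bulls 1 to 5. In fat it was 47.1, 213, 55.3, 4.76 and 15.7 CPM in the cows and 106, 194, 14.6, 76.3 and 68.2 CPM in the bulls. The tissues overlapped, and the log2 fold change of liver over fat was -0.92 (SE 0.54, adjusted p = 0.139, edgeR's quasi-likelihood test). With library sizes alone it was -1.60 (adjusted p = 0.00961), which met the call of higher in fat. SAA3 was higher in fat than in muscle by 3.52 and than in pituitary by 6.28. The summed neutrophil markers S100A8, S100A9, S100A12 and CXCR2 were 558 CPM in the fat of bull 5 and 17.1 to 237 CPM in the other fat libraries, while the 213 CPM of SAA3 was in the fat of cow 2. Among the other amyloid A genes in the tables, SAA2 was at 189 to 4698 CPM in liver and at most 4.33 CPM in fat. M-SAA3.2 was at no more than 0.967 CPM in liver and 8.47 CPM in fat. SAA2 and M-SAA3.2 were named after their values were seen, while SAA4 belongs to the list of positive acute phase genes. SAA2 and M-SAA3.2 resemble SAA3, and reads that aligned to more than 1 place were not counted, so the values of SAA3 are uncertain.

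ORM1 binds basic drugs and dampens inflammation, and ITIH4 and A2M belong to families of protease inhibitors. ORM1 in liver ranged from 873 to 5539 CPM, with the highest value in bull 4. In fat it was 1.10 to 9.97 CPM, the highest in bull 5 and at most 5.85 CPM in the others. It was 0 to 1.48 CPM in muscle and 0.0684 to 0.783 CPM in pituitary. ORM1 was higher in fat than in muscle by 2.16 and than in pituitary by 3.11 on the log2 scale.

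ITIH4 in liver ranged from 3633 to 10707 CPM. In muscle it was 38.8, 105, 60.2, 399.6 and 61.9 CPM in cows 1 to 5 and 102, 33.1, 41.3, 67.3 and 136 CPM in bulls 1 to 5. In fat it was 60.4, 44.6, 25.9, 43.2 and 32.2 CPM in the cows and 18.7, 16.9, 15.6, 20.9 and 28.5 CPM in the bulls. Muscle and fat overlapped, and the muscle of cow 4 stood far above the other muscles. ITIH4 was the only one of the 10 genes called higher in muscle than in fat, with a log2 fold change of fat over muscle of -1.78 (SE 0.35, adjusted p = 4.96e-05, edgeR's quasi-likelihood test). With library sizes alone that value was -0.84, short of the fold needed for a call.

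A2M ran against the family. Its level in fat was 6538, 5108, 2044, 679.6 and 2224 CPM in cows 1 to 5 and 3864, 2495, 2455, 5337 and 1492 CPM in bulls 1 to 5. In liver it was 518, 359, 306, 1074 and 1279 CPM in the cows and 2423, 1989.9, 1061, 2669.7 and 803 CPM in the bulls. Fat exceeded liver in 9 of the 10 animals as paired by replicate number, all but cow 4. The levels of the tissues overlapped between animals.

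The log2 fold change of A2M in liver over fat was -1.39 (SE 0.37, adjusted p = 0.00141, edgeR's quasi-likelihood test), and without bull 3 it was -1.44 and without bull 5 -1.47. Muscle, at 377 to 1704 CPM, was not called different from liver (log2 fold change 0.46, adjusted p = 0.292). Pituitary was lowest, at 50.4 to 163 CPM. A2M is also made by endothelium and fibroblasts, and the summed level of 4 endothelial markers (PECAM1, CDH5, VWF, KDR) was 1133 to 2304 CPM in fat, 278 to 694 CPM in liver, 534 to 886 CPM in muscle and 105 to 237 CPM in pituitary. Their part in the difference was not tested.

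Between fat and muscle, 6 of the 10 genes were higher in fat (HP, CP, ORM1, LBP, SAA3 and A2M, against 23.8% of all genes) and 1 in muscle (19.1% of all genes). Between fat and pituitary, 7 were higher in fat (22.7% of all genes) and 1 in pituitary (24.3%). Between muscle and pituitary, 6 were higher in muscle (22.6%) and 2 in pituitary (25.2%). The calls of HAMP and HPX between these low tissues were fragile. HPX between fat and pituitary had a log2 fold change of 1.31 (adjusted p = 0.0145), which fell to 0.88 (adjusted p = 0.0718) with the animal as a replicate block. HAMP between the same tissues was at 1.66 (adjusted p = 0.0559), and at 1.58 (adjusted p = 0.0275) with the block, all by edgeR's quasi-likelihood test.

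The low levels outside liver were next set against albumin (ALB), an abundant hepatocyte transcript, of the same library. This comparison was added after the data were seen. ALB itself had 98 to 1334 reads in fat, 13 to 964 in muscle and 144 to 433 in pituitary. For CRP, the median number of reads per 1000 ALB reads was 36.4 in liver, beside 40.4 in pituitary, 33.9 in muscle and 37.4 in fat. For HPX it was 63.6 in liver, beside 76.0, 83.1 and 69.4 in those tissues, and for HAMP 5.84, beside 3.27, 9.57 and 7.64. CRP, HPX and HAMP thus stood to albumin outside liver much as they did in liver, with at most 3 of 10 libraries of any tissue above the highest liver. For HAMP these ratios rest on at most 15 reads per library in fat, 9 in muscle and 5 in pituitary.

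The other genes did not keep that ratio in every tissue. LBP had a median of 4726 reads per 1000 ALB reads in fat, against 11.6 in liver, and all 10 fat libraries were above the highest liver. All 10 fat libraries were also above the highest liver for HP, CP, ITIH4, SAA3 and A2M, and 9 of 10 for ORM1. In muscle, ITIH4, SAA3 and A2M were above in all 10 libraries, LBP in 8, CP in 4 and HP in 1. In pituitary, HP, CP, ITIH4 and A2M were above in all 10 libraries and SAA3 in 9, and CP reached a median of 5889 against 51.5 in liver. ORM1, with a median of 15.8 in liver, was at 17.5 in muscle and 19.5 in pituitary, with 0 and 1 of 10 libraries above. LBP in pituitary was at 17.0, with 2 of 10 above. Whether the shared low signal of CRP, HPX, HAMP and ALB outside liver came from those tissues or from other RNA was not tested.

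**Figure D2:**
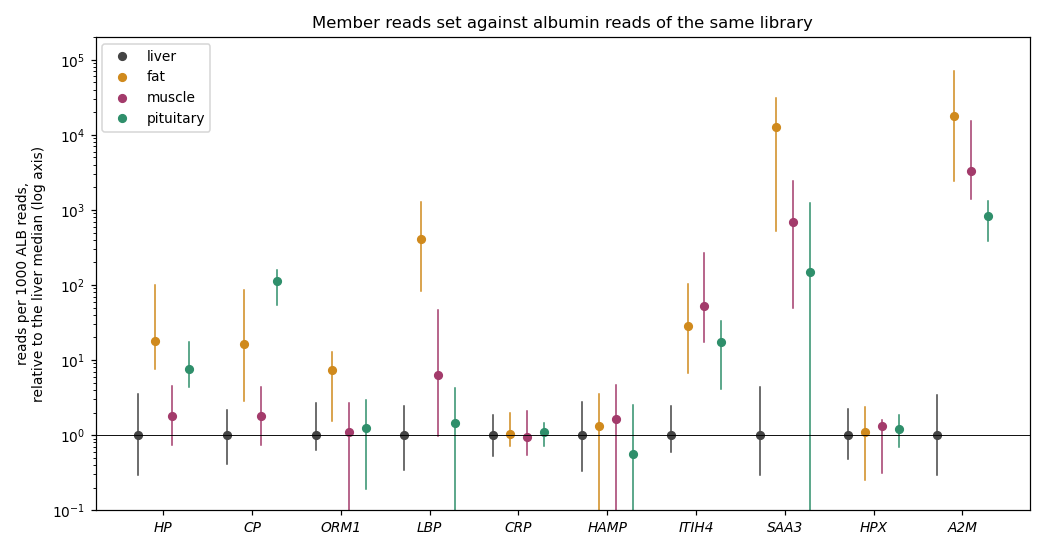
Reads of each gene per 1000 ALB reads of the same library, divided by the median of the 10 livers, on a log axis. Points are medians of 10 libraries and lines run from the lowest to the highest library, cut at 0.1 where a library had no read. CRP, HPX and HAMP stay near the liver ratio in all tissues, whereas A2M, SAA3, ITIH4, and LBP in fat and CP in pituitary, lie far above it.

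Among the 10 livers, several of the genes varied far more than most genes. The SD of log2(CPM + 0.5) over the 10 livers was 1.34 for HAMP, 1.10 for A2M, 1.07 for HP, 0.99 for SAA3 and 0.93 for LBP, against a median of 0.43 over the 7217 genes with at least 10 CPM in liver. These 5 genes lay above the 95th percentile of those genes, at percentiles 98.8, 97.7, 97.5, 96.5 and 95.6. ORM1 (0.69), CP (0.54), HPX (0.52) and ITIH4 (0.51) lay between percentiles 67.0 and 86.4. CRP was the steadiest, with an SD of 0.30 at percentile 17.7. In fat, SAA3 (SD 1.71, percentile 98.9) and HP (1.32, percentile 95.4) again varied more than 95% of the 7287 genes measured at that level, and in muscle ITIH4 did (1.06, percentile 96.1). In pituitary, ITIH4 (0.74, percentile 96.7) and HP (0.74, percentile 96.7) did so. Single libraries stood high in these groups. ITIH4 in muscle was 399.6 CPM in cow 4, against at most 136 CPM in the others. In the pituitary of bull 5, ITIH4 was 32.9 CPM (at most 14.4 CPM in the others) and HP 39.8 CPM (at most 23.5 CPM). The SDs were not recomputed without those libraries.

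**Figure D3:**
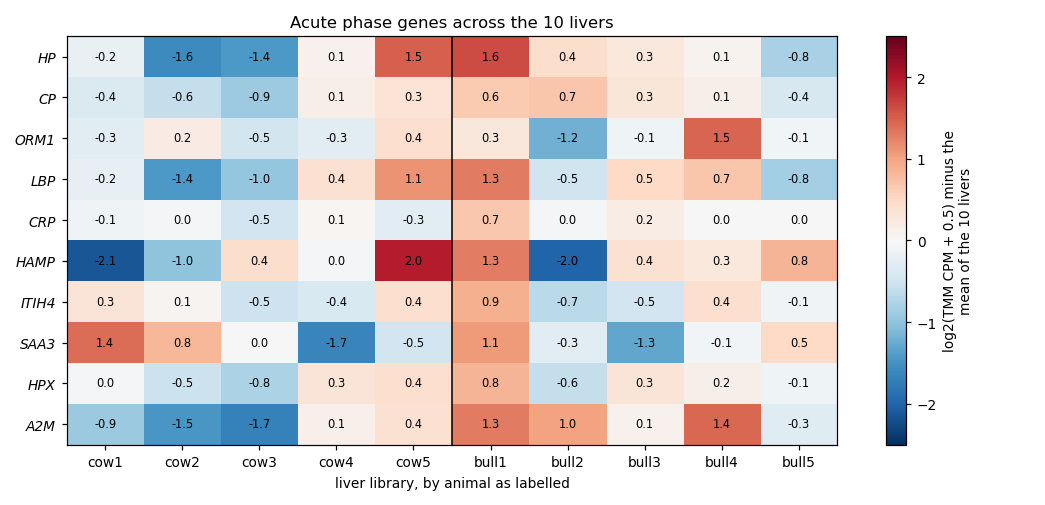
Level of each gene in each liver as log2(TMM CPM + 0.5) minus the mean of the 10 livers, with cows left and bulls right of the line. The livers of bull 1 and cow 5 were high for HP, LBP, HAMP and HPX and those of cows 2 and 3 low for HP, LBP and A2M, while SAA3 was high in cow 1 and low in cow 4 and in the library labelled bull 3.

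Some of the genes were high in the same livers. Over the 45 pairs of the 10 genes and the 10 livers, 4 pairs passed a two-sided permutation test of Pearson's r after Benjamini-Hochberg adjustment. How many pairs of other genes reached such an r was not counted. STT3A, PDIA6 and SELK, outside the family and picked as nearest to HP, had a higher r with HP (0.961, 0.956 and 0.955). HP and LBP had r = 0.907 (permutation p = 0.0003, adjusted p = 0.00889) and rho = 0.842 (adjusted p = 0.0522). LBP and HPX had r = 0.898 (permutation p = 0.00051, adjusted p = 0.00889) and rho = 0.891 (adjusted p = 0.0234). HP and CP had r = 0.885 (permutation p = 0.0007, adjusted p = 0.00889) and rho = 0.952 (adjusted p = 0.0063). CP and A2M had r = 0.894 (permutation p = 0.00079, adjusted p = 0.00889) and rho = 0.782 (adjusted p = 0.077).

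The relations were recomputed without single livers. Without the 2 livers farthest from the median, r was 0.820 for HP and LBP, 0.854 for LBP and HPX, 0.844 for HP and CP and 0.769 for CP and A2M. Without the liver labelled bull 3, the same 4 pairs passed, with r from 0.888 to 0.910 over 9 livers and an adjusted permutation p of 0.0193. With library sizes alone, HP and CP fell to r = 0.817 (adjusted permutation p = 0.0525). HP and SAA3 had no relation that passed across livers (r = -0.174, rho = -0.333, adjusted permutation p = 0.743). ORM1 and ITIH4 had r = 0.691 (rho = 0.830, adjusted permutation p = 0.101).

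**Figure D4:**
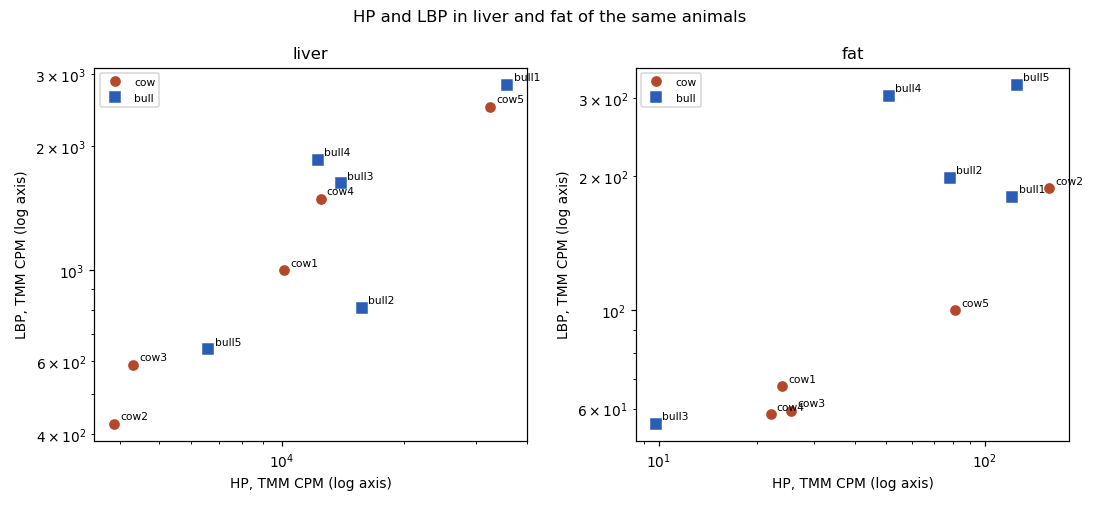
HP against LBP, both as TMM CPM on log axes, in the livers (left) and fat (right) of the 10 animals. Tissues are paired by replicate number, with cows as circles and bulls as squares. In liver, bull 1 and cow 5 lie at the top and cows 2 and 3 at the bottom, and in fat the order of the animals is different.

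The genes whose level followed each of 5 members most closely over the 10 livers were looked up among the 7217 genes with at least 10 CPM, as a description with no test. For HP they were STT3A (r = 0.961), PDIA6 (0.956) and SELK (0.955). For LBP they were SLC35B1 (0.964), COX5A (0.960) and ARF4 (0.959). For SAA3 they were FANCI (0.944), ACP5 (0.941) and CCDC69 (0.938). For HAMP they were EEF2 (0.962), RPL32 (0.944) and MGC137014 (0.930), and for A2M they were NEK6 (0.963), IGSF5 (0.955) and CCL24 (0.924). Without the liver labelled bull 3, the r values of these 15 genes lay between 0.924 and 0.974.

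The study asked which genes differ between cows and bulls. By edgeR's likelihood ratio test, with a call at an adjusted p below 0.05 over all genes, 0 of the 10 genes were called by sex in liver (0.175% of all genes tested were), fat (0.114%), muscle (0.517%) or pituitary (0.745%), in the fit over the 4 tissues (1.69%), or for the interaction of sex and tissue (0.335%). The quasi-likelihood test and DESeq2 also called 0 of the 10. At an unadjusted p below 0.05, the likelihood ratio test counted 3 genes in pituitary (9.27% of all genes), 0 in muscle (11%), 2 in fat (6.88%), 1 in liver (7.45%), 1 over the 4 tissues (16.7%) and 1 for the interaction (8.58%). The median log2 fold change of bulls over cows for the 10 genes was 0.72 in pituitary, -0.01 in muscle and in fat, and 0.37 in liver, beside 0, -0.04, -0.06 and 0 for all genes. These medians moved with single animals. Without bull 5 the median was -0.59 in fat and 0.41 in pituitary, and without bull 3 it was 0.35 in liver. Leaving out each animal in turn gave 0.41 to 0.89 in pituitary, -0.28 to 0.30 in muscle, -0.59 to 0.35 in fat and 0.03 (without bull 1) to 0.63 in liver, so of the 4 tissues the sign held in pituitary and liver. In pituitary, the 6 genes that passed the filterByExpr filter had a median of 0.12.

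**Figure D5:**
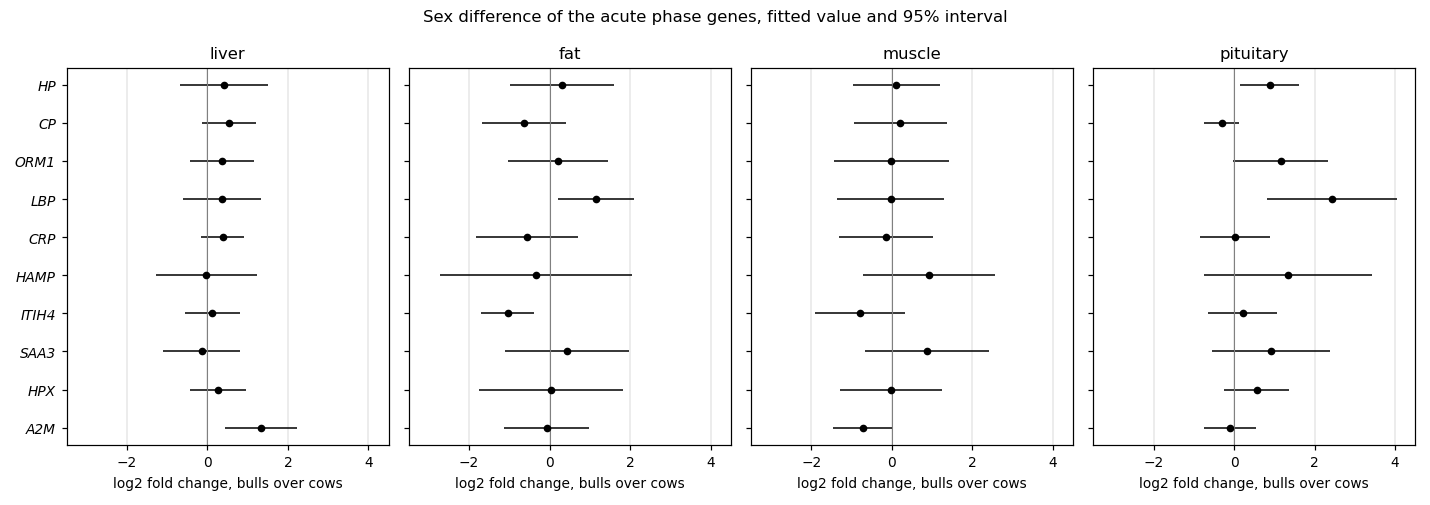
Fitted log2 fold change of bulls over cows for each gene in each tissue, with bars of 95% intervals (1.96 standard errors). A2M in liver, ITIH4 and LBP in fat, and HP and LBP in pituitary have bars that do not reach 0, but none of these passed the adjustment over all genes. All animals are included, and in fat the points of HPX, ORM1 and HAMP fall below 0 without bull 5 (-1.23, -0.67 and -1.89).

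In liver, A2M had the largest sex difference of the 10 genes, with 707 ± 441 CPM (SD, n = 5) in cows and 1789 ± 825 CPM in bulls. The log2 fold change was 1.34 (SE 0.46, adjusted p = 0.284 by edgeR's likelihood ratio test), and without bull 3 it was 1.48 (adjusted p = 0.205). The sexes overlapped, since the livers of cows 4 and 5 were above those labelled bulls 3 and 5, and an exact permutation test over all assignments of the animals gave p = 0.0476 (adjusted p = 0.556 over 40 tests). HP, with 12667 ± 11697 CPM in cows and 16917 ± 11138 CPM in bulls, had a log2 fold change of 0.42 with a 95% interval from -0.68 to 1.51. The intervals of SAA3 (-1.09 to 0.81), HAMP (-1.28 to 1.23) and LBP (-0.61 to 1.34) in liver were also wide. Differences of a size within these intervals were not excluded with 5 animals per sex. CRP, the steadiest gene, had an interval from -0.16 to 0.92.

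In fat, ITIH4 was 41.3 ± 13.2 CPM in cows and 20.1 ± 5.11 CPM in bulls, a log2 fold change of -1.04 (SE 0.34, adjusted p = 0.366, edgeR's likelihood ratio test). Only the fat of bull 5 (28.5 CPM) lay above the lowest cow (25.9 CPM), and without bull 5 the value was -1.20 (adjusted p = 0.167). LBP went the other way, with 94.5 ± 54.8 CPM in cows and 212 ± 107 CPM in bulls (log2 fold change 1.16, SE 0.48, adjusted p = 0.615). Without bull 5 it was 0.96 (adjusted p = 0.621). The same library decided the sign of HPX and ORM1 in fat. HPX was at 0.04 with bull 5 and at -1.23 without it, and ORM1 at 0.21 and -0.67. HAMP went from -0.34 to -1.89 and CRP from -0.56 to -1.08, none of which was called. In muscle no gene had an unadjusted p below 0.05, and A2M came nearest, with a log2 fold change of -0.72 (SE 0.38, adjusted p = 0.496, edgeR's likelihood ratio test).

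In pituitary, LBP was 0, 0, 0.290, 0.0780 and 0.0684 CPM in cows 1 to 5 and 0.404, 0.303, 0.229, 0.397 and 1.11 CPM in bulls 1 to 5, from 0 to 17 reads per library. Bulls were higher except that cow 3 lay above bull 3. The log2 fold change was 2.44 (SE 0.82, adjusted p = 0.0941, edgeR's likelihood ratio test). It passed the threshold without cow 3 (3.57, adjusted p = 0.021) and was at 1.93 (adjusted p = 0.191) without bull 5. HAMP, which had 0 to 5 reads per pituitary, likewise passed when cow 5, the only cow with a read, was left out (4.35, adjusted p = 0.0493). HP in pituitary was 10.9 ± 4.14 CPM in cows and 20.2 ± 12.2 CPM in bulls (log2 fold change 0.88, adjusted p = 0.389), and without bull 5 it was 0.49 (adjusted p = 0.568). The pituitary of bull 5 had the highest summed hepatocyte markers (86.7 CPM) of the 10. It also had the highest HP, ITIH4, LBP, HPX, ORM1, CRP, HAMP and A2M, that is, all members but CP and SAA3. The part of those markers in these values was not tested.

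Over the 4 tissues together, LBP was higher in bulls by 0.81 (SE 0.32, adjusted p = 0.165, edgeR's likelihood ratio test). It passed without cow 5 (1.18, adjusted p = 0.00586), and this fit treats the 4 tissues of an animal as separate samples. The interaction of sex and tissue had its lowest p for A2M (adjusted p = 0.377). By exact permutation, the smallest of the 40 p-values were 0.0159 for ITIH4 in fat and for LBP in pituitary (adjusted p = 0.317), and 0 of 40 passed the adjustment.

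The rest of the acute phase response was described from lists of genes. Of 17 other positive acute phase genes tested, such as the fibrinogen chains FGA, FGB and FGG, complement C3 and SERPINA1 (alpha-1-antitrypsin), 16 were higher in liver than in fat, muscle and pituitary alike, where 21.2%, 21.6% and 21.1% of all genes were. PTX3, a pentraxin made outside liver, was higher in fat (log2 fold change of liver over fat -5.62, SE 0.83) and in muscle (-3.91). The muscle value leaned on cow 4, with 740.5 CPM against 3.30 to 85.2 CPM in the other muscles, and without cow 4 it was -2.10 (adjusted p = 0.0192, edgeR's quasi-likelihood test). All 9 negative acute phase genes tested, among them ALB, TTR and RBP4, were higher in liver than in each other tissue, as were the 3 other inhibitor genes tested, ITIH1, ITIH2 and AMBP, beside the same shares of all genes. SERPINA1 and F2 were higher in pituitary than in fat and muscle, beside CP. The counts against fat, out of 23 genes of interleukin and NF-kappaB control, were 8 higher in liver and 4 lower (21.2% and 26.2% of all genes). They were 11 and 0 against muscle (21.6% and 24.8%), and 12 and 2 against pituitary (21.1% and 27.1%). The count of lower genes against fat was thus no larger a part of the list than of all genes.

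STAT3, which carries the interleukin-6 signal, was higher in liver than in fat, muscle and pituitary by 1.85, 1.78 and 2.09 on the log2 scale. IL6 itself had no read in 6 of 10 livers and at most 0.512 CPM there, against 0.515 to 20.1 CPM in fat. SOCS3, a feedback inhibitor of that signal, reached 80.5 CPM in liver and was called higher there than in muscle (2.53) and pituitary (2.42) but not than in fat (0.82, adjusted p = 0.0767, edgeR's quasi-likelihood test). Of the 10 partner and receptor genes tested, CD163 (the receptor for haptoglobin bound to haemoglobin), CD14 (the partner of LBP) and FTL (ferritin light chain) were higher in liver than in all 3 other tissues, as was SLC40A1 (ferroportin, the target of hepcidin). FTL reached at most 31.6 CPM in liver, and its call against fat (2.58) was lost without cow 3 (2.28, adjusted p = 0.052) and without cow 4 (1.52, adjusted p = 0.152). TLR4 was higher in fat than in liver (log2 fold change of liver over fat -1.99), as was LY96, and TFRC was higher in muscle than in liver. Of these 10 genes, 7 were higher and 2 lower in liver than in fat (21.2% and 26.2% of all genes). The counts were 5 and 1 against muscle (21.6% and 24.8%), and 9 and 0 against pituitary (21.1% and 27.1%). Of the 10 genes tested that control hepcidin, TFR2 was higher in liver than in fat, muscle and pituitary (7.77, 10.06 and 5.50). HFE2 (hemojuvelin) was higher in liver than in fat and pituitary but lower than in muscle (-2.20). BMP2 was lower in liver than in fat, and SMAD4 was lower in liver than in muscle. In this list, 3 genes were higher and 1 lower in liver than in fat. The counts were 3 and 2 against muscle and 5 and 0 against pituitary, beside the same shares of all genes.

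Sex differences in these lists were as few as among the 10 genes. The 6 lists held 17, 9, 23, 10, 10 and 3 genes tested. In liver, fat and pituitary, over the 4 tissues and for the interaction, 0 of them were called. Of all genes tested, 0.175%, 0.114%, 0.745%, 1.69% and 0.335% were. In muscle 1 was called, beside 0.517% of all genes. CD14 in muscle was 22.2, 22.7, 18.7, 16.4 and 18.3 CPM in cows 1 to 5 and 10.4, 6.09, 3.70, 11.9 and 4.97 CPM in bulls 1 to 5. The sexes did not overlap, and the share of all genes without overlap was not counted. The log2 fold change of bulls over cows was -1.40 (SE 0.34, adjusted p = 0.0233, edgeR's likelihood ratio test). The call depended on single animals, and was lost without bull 2, 3 or 5 and without cow 1, 2 or 3 (-1.41 to -1.25), and by the quasi-likelihood test of edgeR (adjusted p = 0.244). The interaction of sex and tissue for CD14 had an adjusted p of 0.319. The summed macrophage markers in muscle were 271 to 485 CPM in cows and 87.8 to 315 CPM in bulls, and their part in this difference was not tested.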

How the data were processed

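Adapters were trimmed by the authors with Trimmomatic. Alignment to bosTau7 used TopHat2 with Bowtie2, and HTSeq assigned uniquely aligned reads to UCSC gene models. For every library the authors deposited raw counts per gene symbol, neither normalized nor pooled. Whether the counting used strand is not given in the sources used here. Reads with several alignments were left out, so near-identical genes can be counted too low. The 6 rows of each table that name no gene were left out, and the row named null held 0.114% to 2.76% of the reads.

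The counts of all 13148 genes with at least 1 read were fitted in edgeR 4.0.16 (R 4.3.3) with TMM factors, and p-values were adjusted by Benjamini-Hochberg over all of them. Sex was tested in each tissue on its own and, with tissue as a term, over all libraries, by the likelihood ratio test of the study. Tissues were compared by the quasi-likelihood test with sex as a term. Fold changes used a prior count of 0.125. Correlations and exact permutation tests used log2(CPM + 0.5), the former with 100000 resamples (scipy 1.17.1). Intervals and standard errors of fold changes include the spread between animals through the fitted dispersion, whereas floors cover counting error only.

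Animals are the replicates. The study took 4 tissues from its 10 cattle. Libraries of the same sex and replicate number were taken as the same animal. The source labels name only sex and tissue, so the labels could not check this pairing. For bull 3 the sex-linked genes went against it. Summed XIST, USP9Y, DDX3Y and ZFY were 1401 CPM in the bull 3 liver, within the 681 to 2179 CPM of the cows. In the fat, muscle and pituitary labelled bull 3 they were 44.9, 87.8 and 81.6 CPM, against at least 316, 631 and 1223 CPM in cows. Whether that liver came from another animal was not tested. Numbers do not pair cows with bulls. Alternatives were RLE factors, library sizes alone, the filterByExpr filter, a pseudocount of 2, DESeq2 1.42.0, voom in limma 3.58.1 and leaving out each animal. All 10 members are named in every comparison, genes of the lists where they were called or a result turns on them, and the 3 genes nearest to each of 5 members by Pearson's r over livers. The members and lists were chosen with earlier results of these data known. Genes are compared between libraries and not with each other, as transcript lengths were not used. No coordinates are given, because the annotation at hand is of another assembly (ARS-UCD2.0). The fitting scripts were tested on simulated data.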

Additional observations from a re-analysis of the deposited data

Results flagged for a closer look

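In each group of 5 animals, the highest and the lowest value was tested for standing apart from the rest by Dixon's criterion. Of 80 groups, which are the 10 genes in each sex and tissue, 12 had such a value. Chance flags about 1 in 20 groups of independent, normally distributed values. These are CPM with no log taken, the 10 genes share their animals, and the rate for such values was not tested.

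In fat, the library of bull 5 stood above the other bulls for ORM1 (9.97 CPM, next highest 2.658 CPM), HAMP (1.159 CPM, next 0.1831 CPM) and HPX (11.44 CPM, next 1.938 CPM). This is the library with the low USP9Y and with the highest hepatocyte and neutrophil markers of any fat, and the part of these in the values was not tested. SAA3 in the fat of cow 2 was 213.5 CPM, against at most 55.31 CPM in the other cows.

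In liver, CRP was 6610 CPM in bull 1, against at most 4763 CPM in the other bulls. In muscle, CP was 11.12 CPM in bull 1 (next 3.464 CPM), LBP 9.729 CPM in cow 5 (next 2.956 CPM) and ITIH4 399.6 CPM in cow 4 (next 104.6 CPM). In pituitary, LBP was 0.2899 CPM in cow 3 and 1.109 CPM in bull 5, HAMP was 0.2735 CPM in cow 5 against no read in the other cows, and SAA3 was 4.365 CPM in bull 1 (next 0.7933 CPM). The LBP and HAMP values in pituitary rest on at most 17 and 5 reads.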

How the results depend on the processing

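Leaving out each animal in turn gave 0 to 1 of the 10 genes called by sex in pituitary and 0 to 1 over the 4 tissues, beside 0 with all animals. The genes gained were LBP without cow 3 and HAMP without cow 5 in pituitary, and LBP without cow 5 over the 4 tissues. The other counts of the 10 genes stayed within 1.5 times of their value under all alternatives run, and no called difference changed direction. Differences that were not called did change sign, in 69 of 751 values by sex and 10 of 900 between tissues. Of the single differences between tissues, 876 kept their call, 11 gained it and 13 lost it. Of those by sex, 748 kept their side of the threshold and 3 gained a call.

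With the animal as a replicate block in the comparisons of tissues, HAMP between fat and pituitary gained its call (1.58, adjusted p = 0.0275 by edgeR) and HPX lost its call (0.88, adjusted p = 0.0718), and no other call of the 10 genes changed. Between muscle and pituitary, HAMP and HPX lost their calls with library sizes alone (1.13 and 0.29) and without bull 1 or cow 2, and HAMP also without cow 4 or bull 5. HPX between fat and pituitary lost its call without bull 5 or cow 2 (0.98 and 1.04), and HAMP there gained it with filterByExpr, with DESeq2 and without bull 2, cow 1 or cow 5 (1.66 to 1.90). CRP between muscle and pituitary passed the fold needed without bull 2, cow 3 or cow 5 (at most 1.07), and ORM1 passed without bull 4 (1.14). The cause of these changes was not tested. Library sizes alone moved the mean level of CRP in liver to 3288 CPM and those of CP, CRP and A2M in pituitary to 121, 0.956 and 137 CPM.

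Over all genes, the quasi-likelihood test called fewer genes by sex than the likelihood ratio test: 12 against 98 in pituitary, 7 against 68 in muscle, 3 against 15 in fat, 1 against 23 in liver, 77 against 222 over the 4 tissues and 0 against 44 for the interaction, where 922 genes had an unadjusted p below 0.05. Library sizes alone gave 56 in pituitary and 717 over the 4 tissues, and DESeq2 gave 28 in fat. HAMP, ORM1 and CRP had few reads outside liver, and LBP had few in muscle and pituitary. With 5 animals per sex, small differences of these genes may have been missed.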

Other observations

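Across the 10 fat libraries, the pairs of the 6 members with at least 10 CPM were compared after the data were seen. Of 15 pairs, 0 passed the adjustment by permutation of Pearson's r. HP and LBP came nearest (r = 0.802, rho = 0.758, permutation p = 0.00884, adjusted p = 0.133, and r = 0.700 without the 2 libraries farthest from the median). LBP and SAA3 had r = 0.679 (rho = 0.733, adjusted permutation p = 0.151) and HP and SAA3 r = 0.656 (rho = 0.745, adjusted permutation p = 0.151).

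The level in an animal's liver was also set against that in its fat for the same 6 genes, with tissues paired by replicate number. For HP, r was 0.043 and for LBP -0.107 over the 10 animals. SAA3 had r = 0.716 (rho = 0.564, permutation p = 0.0198, adjusted p = 0.119, and r = 0.713 without the 2 animals farthest from the median). Without bull 3, it was 0.667 over 9 animals (permutation p = 0.0517). None of the 6 passed the adjustment over the 6 relations.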
